A study of Homo sapiens with 8 samples.

Results

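Cassette exons that lie between a short and a long intron were examined in skipped-exon tables from 2 human breast epithelial lines. The members are events in which the middle exon is at least 28 and under 400 nt long, 1 flanking intron is under 500 nt and the other is 5000 nt or longer. An event is an exon together with a given pair of neighbouring exons, so an exon can belong to more than 1 event. Members whose short intron precedes the exon in transcript order are called short-upstream exons, and those whose short intron follows it short-downstream exons. Lengths alone chose the members, with no measured value. Of 123924 events in either table, 4404 were members, covering 3551 exons in 2561 genes. The MCF10A table held 1485 short-upstream and 1507 short-downstream events among 82355, and the HMLE TWIST table held 1699 and 1825 among 98244. MCF10A is a non-tumorigenic breast epithelial line. HMLE TWIST cells are immortalised breast epithelial cells that overexpress TWIST, a transcription factor of the epithelial-mesenchymal transition, from an integrated retroviral pBabe construct. Each line received the solvent DMSO (control) or 10 µM emetine for 24 hours, with 2 biological replicates per group and 8 libraries of polyadenylated RNA in all. The labels do not say how the replicates were grown, so the p-values measure the spread between these libraries. That spread was pooled, in part or in full, over all tested events. The study concerns compounds that regulate splicing through RNA G-quadruplexes, folded structures built from runs of guanine, and the comparison asks which exons change under emetine.

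The spliceosome can pair splice sites across an intron or across an exon. Pairing across the intron is thought to dominate where introns are short, and pairing across the exon where introns are long. An exon with a short intron on a single side has both kinds of neighbour. Emetine binds the small ribosomal subunit and blocks translation. Nonsense-mediated decay, which removes transcripts with a premature stop codon, needs translation. The tables count steady-state RNA, in which more splicing to a form and slower loss of that form cannot be told apart.

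The sequences of the exons and short introns that recur in the results are printed here 5′ to 3′ on the transcript strand, with runs of GGG in capitals. They come from GENCODE 29 transcripts on GRCh38, matched to the events by gene, exon length and intron lengths and not by coordinate, because the deposited tables use GRCh37. The first set holds coding exons: UIMC1, BIN1 and METTL22 were among the largest falls called in both lines, and ACIN1 and UBP1 were called lower in HMLE TWIST by more than in MCF10A.
UIMC1 exon of 239 nt, chr5:176969053-176969291, minus strand: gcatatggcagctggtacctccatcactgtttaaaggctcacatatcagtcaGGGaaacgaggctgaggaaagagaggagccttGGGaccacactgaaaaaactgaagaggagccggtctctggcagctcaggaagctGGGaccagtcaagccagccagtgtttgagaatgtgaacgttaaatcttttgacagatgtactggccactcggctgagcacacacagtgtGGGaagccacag
BIN1 exon of 90 nt, chr2:127051154-127051243, minus strand: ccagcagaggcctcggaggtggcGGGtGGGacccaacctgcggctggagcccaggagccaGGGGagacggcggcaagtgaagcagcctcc
METTL22 exon of 41 nt, chr16:8635039-8635079, plus strand: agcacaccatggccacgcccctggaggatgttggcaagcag
ACIN1 exon of 120 nt, chr14:23089982-23090101, minus strand: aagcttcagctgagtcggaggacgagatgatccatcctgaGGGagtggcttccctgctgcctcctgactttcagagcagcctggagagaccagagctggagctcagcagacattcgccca
UBP1 exon of 108 nt, chr3:33408690-33408797, minus strand: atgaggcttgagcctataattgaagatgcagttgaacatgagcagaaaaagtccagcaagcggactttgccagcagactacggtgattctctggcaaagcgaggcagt

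A G-rich and a G-poor short intron stand side by side in the next set. The intron before the ETHE1 exon is rich in G runs, with GGG starting at 11 positions and a GC content of 63.0%. The intron after the MFSD8 exon holds none and has a GC content of 28.4%.
ETHE1 upstream intron of 165 nt, chr19:43526350-43526514, minus strand: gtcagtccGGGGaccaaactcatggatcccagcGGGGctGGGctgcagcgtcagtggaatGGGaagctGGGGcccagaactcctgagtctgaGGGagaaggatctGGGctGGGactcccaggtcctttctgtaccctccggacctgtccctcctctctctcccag
MFSD8 downstream intron of 88 nt, chr4:127921772-127921859, minus strand: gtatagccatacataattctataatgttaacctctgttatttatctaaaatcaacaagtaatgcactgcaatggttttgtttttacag

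Some members carry a stop codon that makes the inclusion form an annotated decay target. For 3 of them the last coding bases of the exon, up to and including that stop, are shown, with the stop codon in capitals. The stop begins at base 42 of the KLHL42 exon of 103 nt, at base 36 of the VWDE exon of 150 nt and at base 22 of the BIRC5 exon of 165 nt.
KLHL42, chr12:27797261-27797290, plus strand: tcctgtgttgctacttgtcatgtttctTAG
VWDE, chr7:12388920-12388949, minus strand: gccaagattgtaaagtccccccacacgTGA
BIRC5, chr17:78222828-78222851, plus strand: gagagagctctgttagcagaaTGA

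Members had more reads in the emetine libraries. The median number of reads of a tested member was 253 and 265 in untreated against 356 and 333 in treated MCF10A, and 281 and 271 against 394 and 362 in HMLE TWIST. Its part in the results was not tested. Junction reads summed over all events spanned 78412292 to 83483642 for MCF10A and 90031966 to 91259363 for HMLE TWIST, and 2.19% to 2.61% of them fell in members. The inclusion level is the length-corrected share of junction reads that include the exon, from 0 to 1. Testing a member required 20 or more reads in each library compared and 10 or more reads of its rarer form in total. In MCF10A 2299 members had 20 reads in every library and 947 were tested, 495 of them short-upstream and 452 short-downstream. In HMLE TWIST the numbers were 2747 and 1085, with 518 short-upstream and 567 short-downstream, and 704 members were tested in both lines. The labelled identity of the lines was set against known epithelial-mesenchymal exons: 8 of the 10 marker genes had an exon that differed between the untreated lines, among them the 63-nt exon of the actin regulator ENAH, with levels of 0.377 and 0.349 in MCF10A against 0.0201 and 0.0154 in HMLE TWIST.

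Without emetine, the median level of short-upstream exons was below that of short-downstream exons in every library, though not at every intron length. Among the 358 short-upstream exons tested in both lines, the median level was 0.4198 and 0.3758 in the MCF10A controls and 0.4436 and 0.4372 in the HMLE TWIST controls. Among the 346 short-downstream exons it was 0.7898 and 0.7709 in MCF10A and 0.78 and 0.7725 in HMLE TWIST. Both lay below the median of all 19025 events tested in both lines, which was between 0.9155 and 0.9359 in the 4 control libraries. The gap between the orientations was 0.37 and 0.3951 in the MCF10A controls and 0.3364 and 0.3353 in the HMLE TWIST controls. The quartiles lay closer together than the medians. In the first MCF10A control they were 0.02598 and 0.948 for short-upstream exons, and 0.04753 and 0.976 for short-downstream exons. In the first HMLE TWIST control they were 0.03126 and 0.9169 against 0.04447 and 0.9687. Levels over 0.9 made up 32.4% against 39.6% in that MCF10A library and 27.1% against 41.0% in that HMLE TWIST library. The mean gap of the medians over the controls was 0.1085 in MCF10A and 0.06387 in HMLE TWIST with short introns under 300 nt. With long introns of at least 10000 nt it was 0.1679 and 0.04816. Under emetine the gap was 0.2453 and 0.2602 in MCF10A and 0.2391 and 0.2509 in HMLE TWIST, smaller than in either control of the same line. This gap belongs to exons with measurable skipping in both lines. The members tested in MCF10A had median untreated levels, for lengths divisible by 3 and not, of 0.4674 and 0.6862 in short-upstream exons. In short-downstream exons these were 0.8219 and 0.724. For the members tested in HMLE TWIST they were 0.6452 and 0.8189 in short-upstream and 0.9224 and 0.9242 in short-downstream exons. Over the 756 short-upstream and 832 short-downstream members with 20 reads in every library, with no demand on the rarer form, the median in each library was above 0.96 and the gap was between 0.006 and 0.0186.

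**Figure D1:**
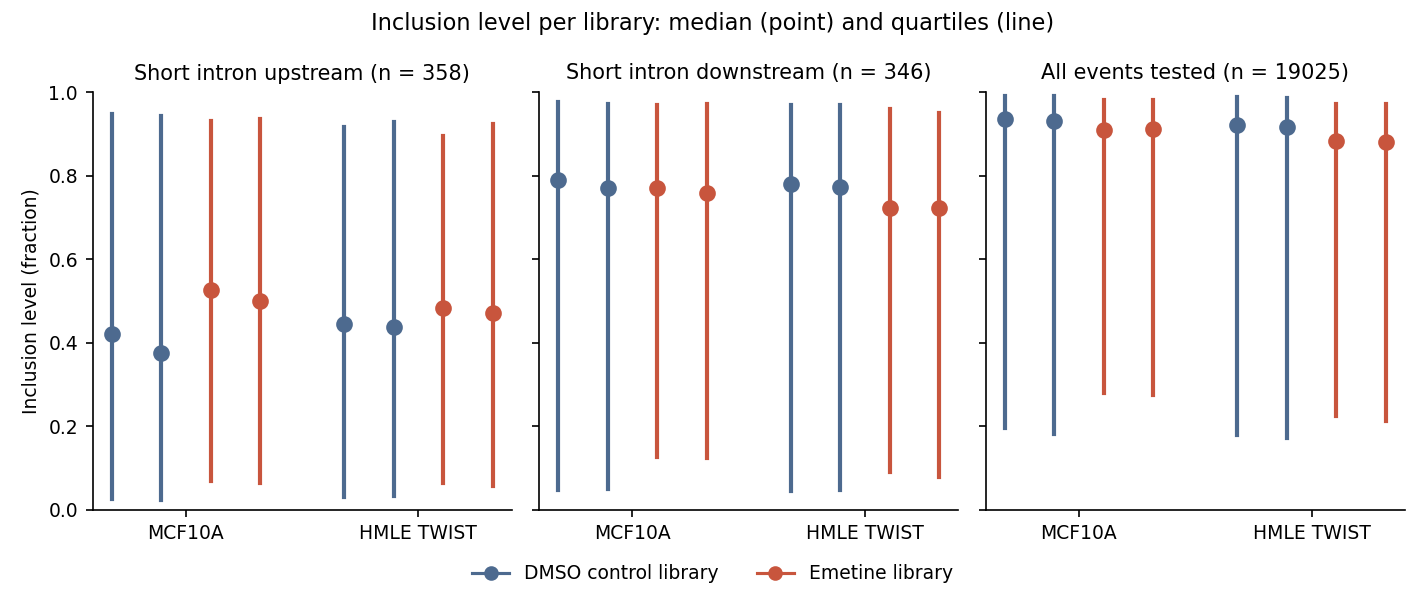
Inclusion level (fraction, vertical axis) in each of the 8 libraries for short-upstream exons, short-downstream exons and all events tested in both lines. Points are medians and lines run from the lower to the upper quartile. Short-upstream medians lie between 0.3758 and 0.5255, short-downstream medians between 0.7213 and 0.7898.

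Low levels were less common in the emetine libraries, among the members and among all events. In MCF10A the lower quartile of short-downstream exons was 0.04753 and 0.04851 without emetine and 0.1257 and 0.1244 with it. For short-upstream exons it was 0.02598 and 0.02311 without and 0.06747 and 0.06444 with emetine. The share of short-downstream exons with a level under 0.1 was 32.95% and 33.24% in untreated MCF10A and 22.54% and 22.25% after emetine. In HMLE TWIST that share was 32.95% and 33.82% untreated and 26.01% and 28.03% after emetine. Over all events tested in both lines the share under 0.1 moved the same way, from 21.45% and 21.77% to 17.05% and 17.06% in MCF10A and from 21.89% and 22.25% to 19.12% and 19.63% in HMLE TWIST. The size of the shift in the members was not tested against that in all events.

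Within the short-upstream exons, the median untreated level was lower where the short intron was longer. In MCF10A it was 0.9264 for the 30 exons with an upstream intron under 100 nt, 0.7249 for 69 with 100 to under 200 nt, 0.5674 for 77 with 200 to under 300 nt, 0.38 for 92 with 300 to under 400 nt and 0.1957 for 90 with 400 to under 500 nt. The same bins gave 0.8877, 0.6032, 0.6404, 0.3977 and 0.2205 in HMLE TWIST, so the second and the third bin changed places. Short-downstream exons had no such order: their bins gave 0.8044, 0.4867, 0.8309, 0.4777 and 0.8331 in MCF10A. The length of the long intron also separated the levels. Short-downstream exons had a median untreated level of 0.8509 in MCF10A where the upstream intron was under 10000 nt (225 exons), and of 0.1071 where it was 20000 nt or longer (32 exons), with 0.8647 and 0.06305 in HMLE TWIST. At 20000 nt or longer the order of the orientations turned, since the 44 short-upstream exons had medians of 0.3684 in MCF10A and 0.3121 in HMLE TWIST. With short introns under 100 nt short-upstream exons were also the higher, at 0.9264 against 0.8044 in MCF10A and 0.8877 against 0.8362 in HMLE TWIST. At the edge of the rule, the 64 short-upstream exons tested in MCF10A with a short intron from 450 to under 500 nt had a median of 0.3989, and the 86 events just outside it, from 500 to under 550 nt, one of 0.4946. For the long intron, the 55 exons from 5000 to under 5500 nt had a median of 0.5703 and the 53 events from 4500 to under 5000 nt one of 0.8714.

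In MCF10A, emetine raised the inclusion of many more members than it lowered. An event was called changed at an adjusted p under 0.05 (quasi-binomial test with Benjamini-Hochberg adjustment over all events) and a change of inclusion level of at least 0.1. By this rule 158 members were called, 16.7% of those tested against 13.8% of all events tested. Of these, 130 were higher under emetine and 28 lower, or 13.7% and 2.96% of tested members, against 8.36% and 5.49% of all events. Both orientations shared this direction: 70 of the 85 called short-upstream exons rose and so did 60 of the 73 called short-downstream exons. Exons between 2 short introns went the other way, with 50 higher and 258 lower of 1954 tested (2.56% and 13.2%). Of them 73.3% had an untreated level of 0.9 or more, against 37.9% of members, and above 0.9 no rise can be called. Exons between 2 long introns had 272 higher and 217 lower of 4251. The median change of the members that rose was 0.198 and that of the members that fell -0.176. Limma called 78 members, 8.24% of those tested against 7.88% of all events.

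**Figure D2:**
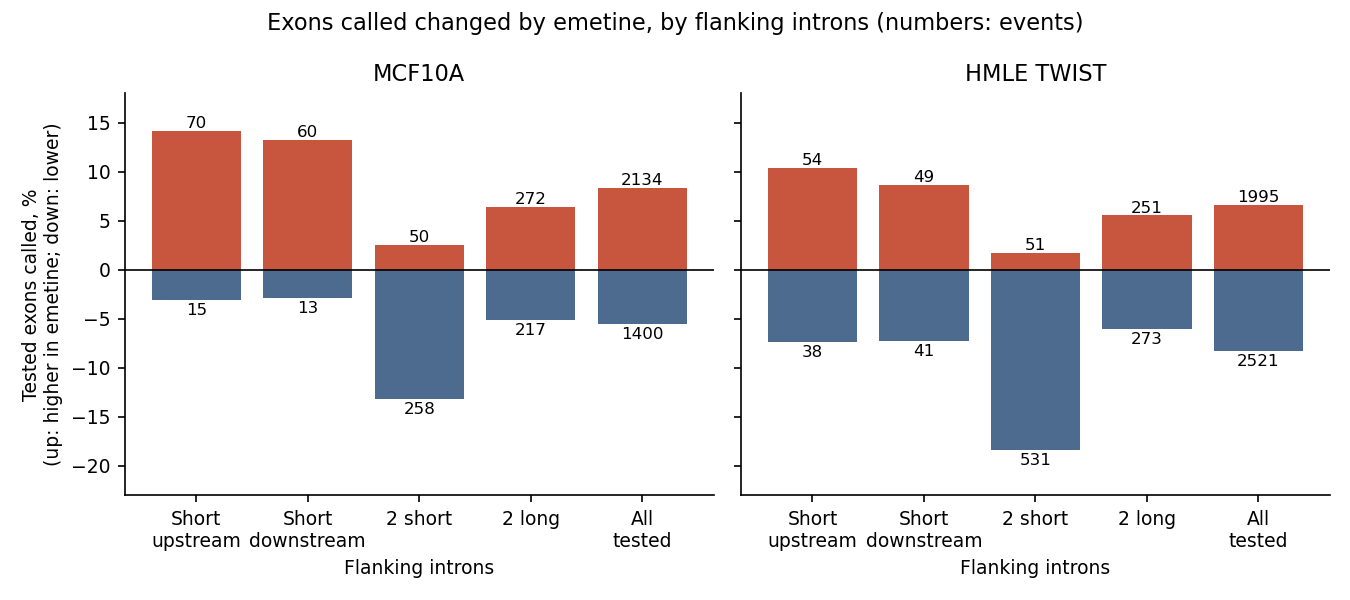
Share of tested events called changed by emetine (percent, vertical axis) by the lengths of the flanking introns, in MCF10A and HMLE TWIST. Bars above 0 are events with higher inclusion in emetine, bars below 0 those with lower inclusion, and the numbers are events. In MCF10A the 2 mixed classes have 70 and 60 events above 0 and 15 and 13 below it.

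The 4 largest rises of short-upstream exons in MCF10A started from levels between 0.0803 and 0.566. The 96-nt exon of SDCCAG8, a centrosome and cilium protein, went from 0.0846 and 0.0803 to 0.575 and 0.612. In HMLE TWIST its levels were 0.237 and 0.113 against 0.648 and 0.626, but its least covered library had 15 reads and it was not tested there. The 101-nt exon of MCEE, an epimerase of mitochondrial propionate breakdown, rose from 0.0837 and 0.14 to 0.534 and 0.583. The 136-nt exon of TRAPPC2, a subunit of the TRAPP vesicle-tethering complex, rose from 0.277 and 0.272 to 0.685 and 0.714. Reads of 594 or more per library supported the 204-nt exon of ZC3H11A, a zinc-finger protein of RNA export, which rose from 0.476 and 0.566 to 0.947 and 0.94 (quasi-binomial adjusted p = 4.84e-20, limma adjusted p = 0.0145). No control library of these 4 exons reached the level of an emetine library. Control and emetine libraries did not overlap, in either direction, for 67.4% of all events tested in MCF10A.

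Falls of short-upstream exons in MCF10A were fewer, and 3 of the 4 largest were in coding sequence. The exon of UIMC1, a ubiquitin-binding protein of the BRCA1-A complex, fell from 0.912 and 0.89 to 0.422 and 0.523 in MCF10A (quasi-binomial adjusted p = 1.04e-14, limma adjusted p = 0.0178). The 86-nt exon of CAP2, an actin-binding protein, fell from 1 in both controls to 0.663 and 0.549. For the 147-nt exon of the kinesin KIF13A the controls were 1 and 0.832 and the emetine libraries 0.598 and 0.679. That call depended on the first control: without it the change was -0.193 and the quasi-binomial adjusted p was 0.102, and limma gave an adjusted p of 0.156. The 241-nt untranslated-region exon of TBPL1, a relative of the TATA-binding protein, fell from 0.974 and 0.942 to 0.686 and 0.697.

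Among short-downstream exons in MCF10A, the largest rises included annotated decay targets. The 89-nt exon of ZNF273, a zinc-finger gene, rose from 0.239 and 0.0753 to 0.926 and 0.958, its least covered library having 30 reads. The KLHL42 exon, in a gene for a substrate adaptor of a cullin ubiquitin ligase, rose from 0.298 and 0.187 to 0.825 and 0.715. In SLC7A6, an amino acid transporter, the 113-nt exon rose from 0.0611 and 0.0472 to 0.429 and 0.426. All 3 exons make an annotated decay target when included. A 126-nt coding exon of MPHOSPH9, a centriole protein, rose from 0.323 and 0.315 to 0.77 and 0.655. Its skipping form is the annotated decay target.

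The largest falls of short-downstream exons in MCF10A were mostly in coding sequence. The 63-nt exon of APBB2, an adaptor that binds the amyloid precursor protein, fell from 0.921 and 0.92 to 0.545 and 0.564 at 562 reads or more. The exon of BIN1, a membrane-bending BAR-domain protein, fell from 0.87 and 0.843 to 0.534 and 0.513. METTL22, a lysine methyltransferase, had an exon that fell from 0.708 and 0.633 to 0.322 and 0.454, which limma did not call (limma adjusted p = 0.0775). The 33-nt exon of PLD3, a lysosomal member of the phospholipase D family, had levels of 0.43 and 0.543 against 0.209 and 0.0643 at as few as 24 reads. It was lost by limma (limma adjusted p = 0.0675) and without the second control or the second emetine library (quasi-binomial adjusted p = 0.0704 and 0.123).

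In HMLE TWIST the rises and falls were closer in number. A total of 182 members were called, 16.8% of those tested against 14.9% of all events. Of them 103 rose and 79 fell, or 9.49% and 7.28% of tested members, against 6.59% and 8.32% of all events. The majority of rises was not stable: 40.0% of calls were rises with short introns under 300 nt and 46.1% with long introns of at least 2000 nt. Short-upstream exons contributed 54 rises and 38 falls and short-downstream exons 49 rises and 41 falls. Exons between 2 short introns again mostly fell, with 51 higher and 531 lower of 2897 tested (1.76% and 18.3%). Of them 79.7% had an untreated level of 0.9 or more, against 47.4% of members. Exons between 2 long introns had 251 higher and 273 lower of 4518. Limma called 115 members, 10.6% of those tested against 9.94% of all events.

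Several of the largest rises in HMLE TWIST rested on few reads. The 146-nt exon of SMC1A, a cohesin subunit, rose from 0.0851 and 0.0278 to 0.882 and 0.76, at as few as 22 reads. In MCF10A it was at 0.0435 and 0.0652 in the controls and at 1 in both emetine libraries, with too few reads for a test. The 121-nt exon of C2orf48, an uncharacterised gene, rose from 0.533 and 0.333 to 0.997 and 0.983. The VWDE exon rose from 0.0476 and 0 to 0.64 and 0.333 and the 178-nt exon of DPCD, a cilium gene, from 0.455 and 0.448 to 0.852 and 0.924, both at as few as 21 reads. A 142-nt version of the TRAPPC2 exon, which differs from the 136-nt one at its downstream end, rose from 0.208 and 0.316 to 0.671 and 0.721. The 181-nt exon of SSR2, a subunit of the translocon-associated complex, rose from 0.333 and 0.178 to 0.816 and 0.783.

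Coverage of the falls in HMLE TWIST varied. CENPH, a kinetochore protein, had a 52-nt exon that fell from 0.977 and 0.986 to 0.556 and 0.57 at 740 reads or more (quasi-binomial adjusted p = 4.85e-14, limma adjusted p = 0.0113). In MCF10A it fell from 0.992 and 0.993 to 0.865 and 0.893, a change that was under 0.1 without the first emetine library (-0.0994). The difference between these falls was -0.305 in level. The test between the lines compares changes of the log odds of inclusion and not of the level. By it the CENPH falls were not called different (quasi-binomial adjusted p = 0.458), which does not show that the changes of level were equal. The METTL22 exon fell from 0.821 and 0.904 to 0.408 and 0.467. The 57-nt exon of NCOA1, a nuclear-receptor coactivator, fell from 0.793 and 0.936 to 0.403 and 0.414 at as few as 21 reads, and the call was lost without the second control (quasi-binomial adjusted p = 0.117). The 104-nt exon of MFSD8, a lysosomal membrane protein, fell from 0.917 and 0.714 to 0.431 and 0.341. Without the first control that call was lost as well (quasi-binomial adjusted p = 0.0897), and limma gave an adjusted p of 0.054. The 162-nt exon of RP11-1012A1.4, included in annotated decay-target transcripts alone, fell from 1 in both controls to 0.588 and 0.63, a call that was lost without either control (quasi-binomial adjusted p = 0.053 and 0.0717).

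Of the 704 members tested in both lines, 127 were called in MCF10A, 146 in HMLE TWIST and 72 in both. The shared set was 56.7% of the MCF10A calls and 49.3% of the HMLE TWIST calls, against 61.0% and 50.8% for all events. Within it 55 members rose in both lines, 16 fell in both and 1 moved in opposite directions. Over all events 1780 were called in both lines, of which 933 rose, 824 fell and 23 moved in opposite directions. The member that moved in opposite directions, chosen here after its values were seen, is a 188-nt short-upstream exon of GUCD1. Its levels were 0.356 and 0.249 against 0.48 and 0.438 in MCF10A. In HMLE TWIST they were 0.275 and 0.379 against 0.198 and 0.16.

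**Figure D3:**
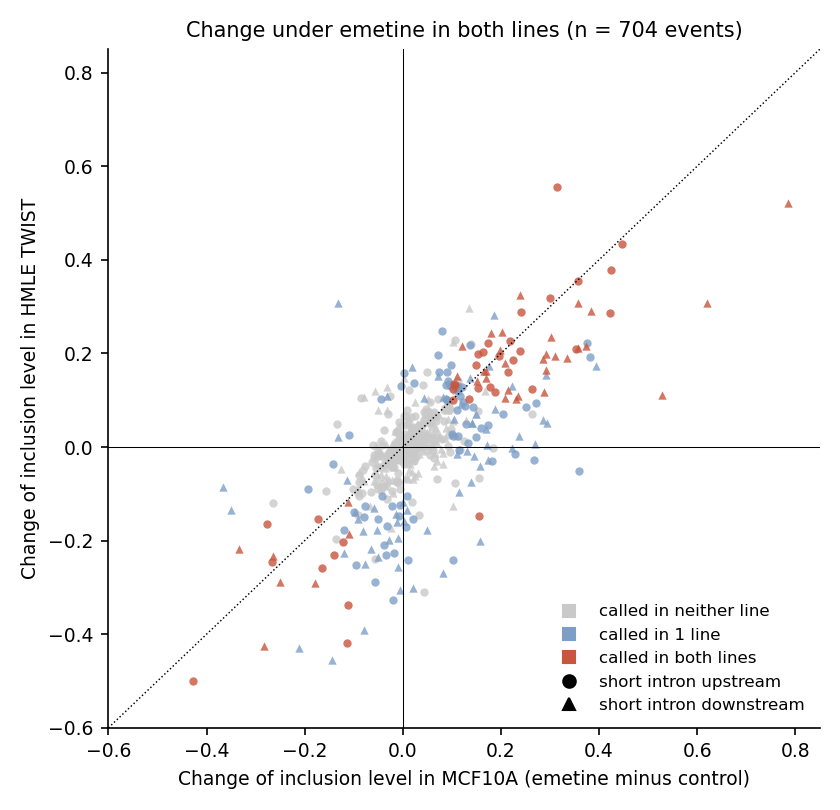
Change of inclusion level (emetine minus control) in MCF10A (horizontal axis) and HMLE TWIST (vertical axis) for the 704 members tested in both lines. Circles are short-upstream and triangles short-downstream exons, red marks the 72 called in both lines, and the dotted line marks equal changes. Most red points lie in the upper right part, with 55 rises against 16 falls. Over all events called in both lines there were 933 rises and 824 falls.

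The largest shared rises spanned 0.239 to 0.784 in MCF10A and 0.308 to 0.521 in HMLE TWIST. MCEE changed by 0.447 in MCF10A and by 0.433 in HMLE TWIST, where its levels went from 0.219 and 0.211 to 0.625 and 0.671. TRAPPC2 changed by 0.425 and 0.378. The 74-nt exon of ACSF2, a mitochondrial acyl-CoA synthetase, makes an annotated decay target when included and changed by 0.357 and 0.355, from 0.173 and 0.147 to 0.542 and 0.493 in MCF10A. On the short-downstream side ZNF273 changed by 0.784 and 0.521, and a 246-nt decay-target exon of UROS, an enzyme of heme synthesis, by 0.357 and 0.308. The UROS levels were 0.0805 and 0.0508 against 0.454 and 0.391 in MCF10A, and 0.101 and 0.0781 against 0.42 and 0.375 in HMLE TWIST. HP1BP3, a chromatin protein, had a 191-nt untranslated-region exon that changed by 0.239 and 0.324. None of these 6 passed the interaction test described below, which does not show that the changes were equal.

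The shared falls were led by UIMC1, which changed by -0.428 in MCF10A and by -0.499 in HMLE TWIST, where its levels went from 0.868 and 0.857 to 0.336 and 0.391. METTL22 changed by -0.282 and -0.425, TBPL1 by -0.266 and -0.245 and BIN1 by -0.333 and -0.218. The exon of ETHE1, a mitochondrial sulfur dioxygenase, was the best covered, with at least 1851 reads per library. In MCF10A it fell from 0.928 and 0.891 to 0.75 and 0.739, and in HMLE TWIST from 0.956 and 0.946 to 0.697 and 0.687. Its G-rich upstream intron is printed above, and the part of that intron in the fall was not tested. For ETHE1 and METTL22 the skipping form is the annotated decay target. The 112-nt exon of WASH3P changed by -0.251 and -0.289. WASH3P has near-identical copies elsewhere in the genome, so its reads cannot be assigned with certainty.

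**Figure D4:**
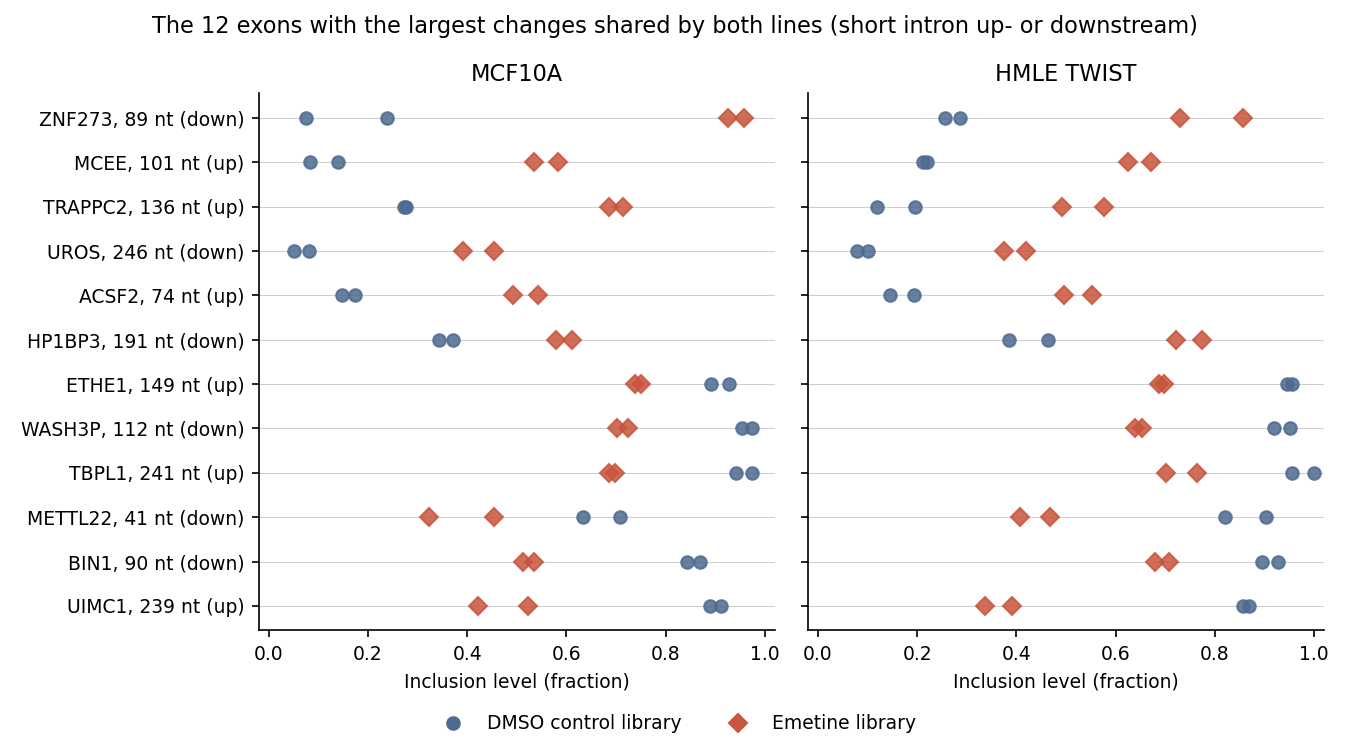
Inclusion level (fraction, horizontal axis) in every library for the 12 exons with the largest changes shared by both lines, 3 rises and 3 falls for each orientation. Circles are control and diamonds emetine libraries, and the orientation stands in brackets. Control and emetine libraries do not overlap for any of the 12 in either line. Over all tested events 67.4% in MCF10A and 69.9% in HMLE TWIST do not overlap. Among called events these are 3516 of 3534 and 4508 of 4516.

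The gene lists held few members, and several events of a list can come from the same gene, so the counts are a description. Over all events 13.8% were called in MCF10A and 14.9% in HMLE TWIST. Of the splicing regulators, 8 genes had a tested member in MCF10A, and 5 of 10 events were called: HNRNPC, SREK1, SRPK2 and TRA2A rose and LUC7L fell. In HMLE TWIST 3 of 14 were called, with HNRNPC and SREK1 higher and ACIN1 lower. The 163-nt exon of HNRNPC, an abundant hnRNP protein that coats nascent RNA, rose from 0.0144 and 0.0163 to 0.248 and 0.199 in MCF10A at 5944 reads or more, and from 0.0209 and 0.0224 to 0.142 and 0.113 in HMLE TWIST. Without the first emetine library the HNRNPC change in HMLE TWIST was 0.0912, under the minimum. The 124-nt exon of SREK1, an SR-related splicing regulator, rose from 0.0684 and 0.066 to 0.357 and 0.353 in MCF10A. Its HMLE TWIST levels were 0.0925 and 0.122 against 0.241 and 0.206, a call that limma did not make (limma adjusted p = 0.101). The SREK1 call in HMLE TWIST was also lost without the first control (quasi-binomial adjusted p = 0.119) or the first emetine library (change of 0.0989).

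In the list of DNA repair and cell cycle genes 6 of 16 events were called in MCF10A, all higher, and 6 of 19 in HMLE TWIST, 4 higher and 2 lower, against 13.8% and 14.9% of all events. The called events came from 5 and 4 genes, and both falls were in NEK1. The decay-target exon of BIRC5 (survivin), a mitotic protein and inhibitor of apoptosis, rose from 0.00887 and 0.0124 to 0.235 and 0.214 in MCF10A. In HMLE TWIST it rose from 0.0129 and 0.0146 to 0.144 and 0.127. A second event of the same BIRC5 exon, with a longer upstream intron and fewer reads, rose from 0.0811 and 0.221 to 0.772 and 0.772 in MCF10A and from 0.122 in both controls to 0.446 and 0.415 in HMLE TWIST. Its difference between the lines was -0.312 (quasi-binomial adjusted p = 0.0138, limma adjusted p = 0.324). The second event was chosen after its values were seen. The 58-nt exon of POLB, the DNA polymerase of base excision repair, rose from 0.474 and 0.447 to 0.708 and 0.692 and from 0.475 and 0.468 to 0.679 and 0.675, although limma did not call it (limma adjusted p = 0.0648 and 0.0871).

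Membrane traffic genes had 7 of 19 events called in MCF10A, 6 higher and 1 lower, and 8 of 26 in HMLE TWIST, 6 higher and 2 lower, against 13.8% and 14.9% of all events. The called events came from 4 and 3 genes, and ATG13 alone gave 3 and 4 of them. TRAPPC12, another TRAPP subunit, had an 87-nt exon that rose from 0 and 0.00985 to 0.174 and 0.169 in MCF10A. The 51-nt exon of ATG13, an autophagy initiation factor, changed by 0.216 and 0.159, and limma called neither change (limma adjusted p = 0.0779 and 0.208). In HMLE TWIST the ATG13 call was lost without the second control (quasi-binomial adjusted p = 0.105) or the first emetine library (quasi-binomial adjusted p = 0.225). Cytoskeleton and adhesion genes had 2 of 11 events called in MCF10A and 3 of 15 in HMLE TWIST. KIF13A was lower in both lines, and in HMLE TWIST its levels were 1 and 1 against 0.8 and 0.871. Chromatin and transcription genes had 1 called event of 7 in each line, the 74-nt decay-target exon of the transcription factor ATF2, which changed by 0.299 and 0.318. The list of kinases and signalling had none of 9 called in MCF10A and 1 of 13 in HMLE TWIST, a rise in MAPK9. In the list of translation and RNA decay no event of 8 and of 10 was called.

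The transcripts that GENCODE annotates for these exons set the members apart from all tested events in where the exon lies. Among the tested members of MCF10A with a matched transcript, 25.5% of short-upstream and 19.9% of short-downstream exons lay outside the coding sequence of every protein-coding transcript that holds them, called untranslated-region exons here, against 10.3% of all tested events. The short or long intron before the exon was the first intron of a matched transcript for 49.8% of short-upstream and 43.6% of short-downstream events tested in any fit, against 34.0% of all. Exon lengths were alike: the median was 112 nt and 110 nt in the 2 orientations and 111 nt over all. A length divisible by 3 was found in 35.8% of short-upstream and 40.9% of short-downstream exons in MCF10A, against 39.1% of all.

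Calls were unequal between the annotation classes. In MCF10A 56 of the 213 untranslated-region members were called, 52 higher and 4 lower, while 51 of the 476 coding members were called, 31 higher and 20 lower. Over all tested events the same split gave 370 higher and 109 lower of 2604 untranslated-region events and 821 higher and 1099 lower of 17077 coding events. In HMLE TWIST 29 untranslated-region members were higher and 10 lower of 203, and 35 coding members were higher and 57 lower of 615. All tested events of that line gave 316 higher and 174 lower of 2532 untranslated-region events and 893 higher and 1963 lower of 21384 coding events. The share of untranslated-region events called was 26.3% of members against 18.4% of all in MCF10A, and 19.2% against 19.4% in HMLE TWIST. A call needs a change of at least 0.1, so a level under 0.1 cannot be called lower, nor one above 0.9 higher. The directions in the decay-target classes were therefore partly set in advance. Members whose inclusion form alone is an annotated decay target had a median untreated level of 0.0146 in MCF10A and 0.0217 in HMLE TWIST. Of these, 25 of 111 were called in MCF10A and 21 of 106 in HMLE TWIST, all of them higher. These are 22.5% and 19.8% of such members, near the 23.5% of 2177 and 19.3% of 2148 such events called over all, where 471 were higher and 41 lower in MCF10A and 351 higher and 63 lower in HMLE TWIST. Where the skipping form alone is a decay target, 1 member was higher and 6 lower of 43 in MCF10A, and none was higher and 12 lower of 41 in HMLE TWIST. The median untreated level of these members was 0.9815 in MCF10A and 0.9772 in HMLE TWIST. All tested events of this kind gave 28 higher and 194 lower of 1213 in MCF10A and 25 higher and 301 lower of 1342 in HMLE TWIST. Among the distinct decay-target exons of either table, the annotated stop codon lay inside the exon for 61 of 91 short-upstream and 59 of 91 short-downstream exons.

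**Figure D5:**
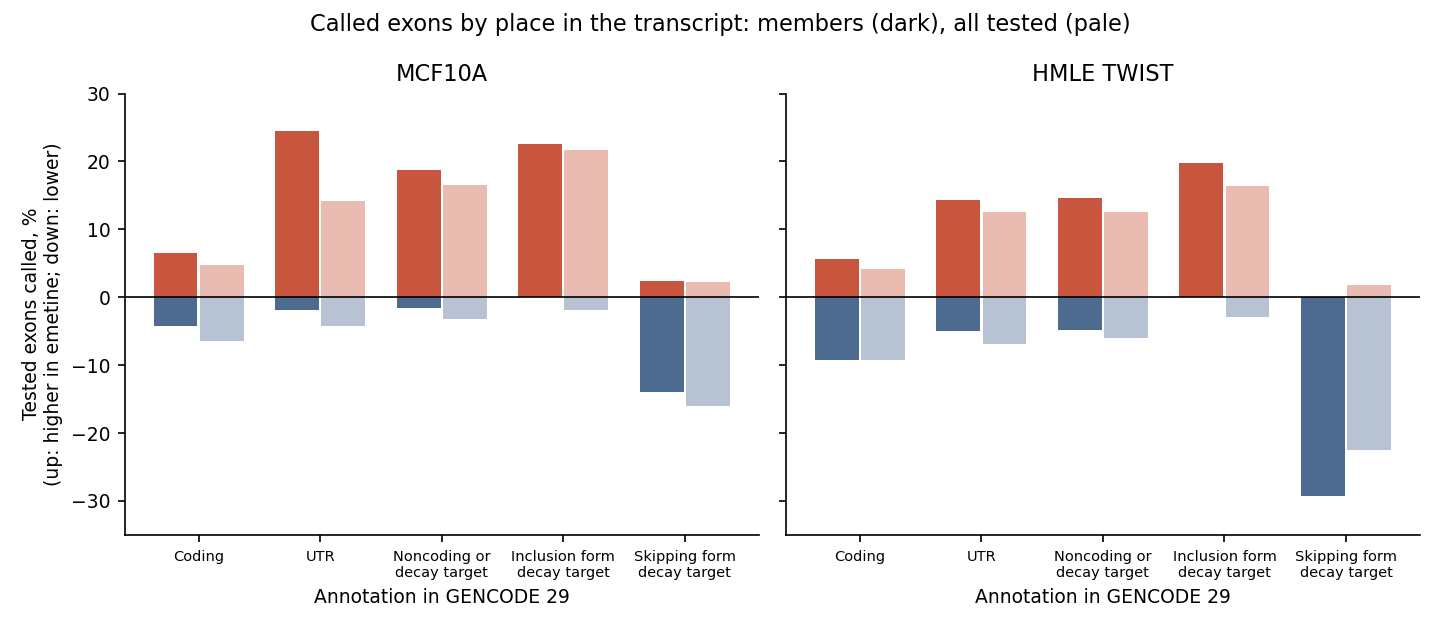
Share of tested events called changed by emetine (percent, vertical axis) by annotation, for the members (dark bars) and all tested events (pale bars). Bars above 0 are events with higher inclusion in emetine and bars below 0 those with lower inclusion. In the class whose inclusion form is a decay target the members have no bar below 0 in either line. The median untreated level of these members is under 0.1, a range in which no call can be lower.

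The untreated level limits which way an exon can be called, since a call needs a change of at least 0.1: an exon under 0.1 cannot be called lower, nor one above 0.9 higher. Members with a level of 0.9 or more made up 37.9% of tested members in MCF10A and 57.2% of all tested events. Of the members under 0.1, 15.6% were called in MCF10A against 15.5% of all tested events in that range, and 13.4% against 11.5% in HMLE TWIST. Of those at 0.9 or more, 4.46% were called against 5.92% in MCF10A, and 8.76% against 8.67% in HMLE TWIST. Between 0.1 and 0.5, 49 of 119 members were higher and 3 lower in MCF10A, or 41.2% and 2.52%, against 33.5% and 7.50% of all. In HMLE TWIST that range gave 36 higher and 12 lower of 107, or 33.6% and 11.2%, against 28.9% and 12.6%. Between 0.5 and 0.9, 20.2% of members were higher and 5.36% lower in MCF10A, against 16.8% and 10.3% of all, while in HMLE TWIST 16.2% were higher and 12.7% lower, against 18.4% and 14.2%.

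By the line-by-treatment term over the 8 libraries, the response to emetine differed between the lines for 28 of the 704 members tested in both. This is 3.98%, against 2.83% of all events. The term tests changes of the log odds of inclusion, while the printed differences and the minimum of 0.1 are of levels. The change in HMLE TWIST was the more negative in 22 of the 28 and the more positive in 6. These are 3.13% and 0.852% of members, against 1.92% and 0.909% of all events. Limma called none of the 28, and 0 of all 19025 events. An unadjusted limma p under 0.05 was found for 108 of the 704 members and for 2826 of all 19025 events. The exon of ACIN1, a splicing-associated nuclear protein, had levels of 0.424 and 0.345 in untreated MCF10A against 0.376 and 0.352 after emetine. In HMLE TWIST it went from 0.463 and 0.564 to 0.212 and 0.163, so that only there did the groups separate. The difference of the changes was -0.306 (quasi-binomial adjusted p = 5.15e-09, limma adjusted p = 0.218).

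The largest difference was in RNF146, a ubiquitin ligase that reads poly-ADP-ribose. Its 128-nt short-downstream exon was at 0.635 and 0.828 against 0.564 and 0.634 in MCF10A and at 0.497 and 0.411 against 0.708 and 0.816 in HMLE TWIST. The KLHL42 exon changed by 0.528 in MCF10A and by 0.112 in HMLE TWIST, where its levels were 0.416 and 0.435 against 0.535 and 0.538. The KLHL42 call in HMLE TWIST was lost without any 1 of its 4 libraries (quasi-binomial adjusted p from 0.0768 to 0.188). In LETMD1, a mitochondrial protein gene, the 102-nt exon had levels of 0.551 and 0.545 against 0.625 and 0.636 in MCF10A and of 0.767 and 0.718 against 0.509 and 0.438 in HMLE TWIST. The exon of UBP1, a transcription factor, changed by -0.112 in MCF10A and by -0.337 in HMLE TWIST, where it fell from 0.585 and 0.489 to 0.202 and 0.198. The UBP1 call in MCF10A was lost without the first control (quasi-binomial adjusted p = 0.0763). HNRNPC rose in both lines, by 0.208 in MCF10A and by 0.106 in HMLE TWIST. Its difference was under 0.1 without the first MCF10A emetine library (-0.0779) or the second HMLE TWIST emetine library (-0.08795).

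Between the untreated lines 48 of 766 members differed, 6.27% against 6.66% of all events, with 23 higher in HMLE TWIST and 25 higher in MCF10A. These are 3.00% and 3.26% of tested members, against 2.19% and 4.47% of all events. Limma called 1 member, 0.131% of those tested against 0.187% of all events, the 84-nt exon of SUN1, a protein of the inner nuclear membrane that links the nucleus to the cytoskeleton. It was included at 0.996 and 1 in MCF10A and at 0.528 and 0.47 in HMLE TWIST, where emetine libraries had 0.893 and 0.918. The same control libraries enter both of these HMLE TWIST comparisons. The 148-nt exon of UQCRH, a subunit of respiratory complex III, was at 0.25 and 0.271 in MCF10A and at 0.626 and 0.638 in HMLE TWIST. ENDOV, an RNA endonuclease gene, had a 135-nt exon at 0.161 and 0.235 in MCF10A and at 0.587 and 0.53 in HMLE TWIST. For the 283-nt exon of RABGAP1L, a Rab regulator, the levels were 0.387 and 0.36 against 0.727 and 0.721, at as few as 33 reads, and the call was lost without either HMLE TWIST control (quasi-binomial adjusted p = 0.0966 and 0.0916). In the other direction, the 102-nt exon of the mitochondrial carrier SLC25A16 was at 0.42 and 0.611 in MCF10A and at 0.0413 and 0.0962 in HMLE TWIST.

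The exon sequences of members differed little from those of all tested exons. On the transcript strand, GGG was found in 71.3% of 443 short-upstream and 67.2% of 405 short-downstream exons tested in MCF10A, against 66.2% of all 21603 exons with a sequence. For CCC, which is GGG on the other strand, the shares were 70.9%, 67.2% and 66.6%. The median GC content was 51.6% in short-upstream and 47.6% in short-downstream exons, against 48.6% in all. Among members called in HMLE TWIST, GGG was in 29 of 35 short-upstream and 29 of 36 short-downstream exons that fell and in 30 of 47 and 28 of 43 that rose. All tested exons of that line gave 72.2% of those that fell and 64.9% of those that rose. In MCF10A the members that fell held GGG in 9 of 15 and 9 of 13 exons. Those that rose held it in 42 of 62 and 38 of 55. All tested exons of MCF10A gave 65.2% of those that fell and 65.3% of those that rose.

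Short introns could be read only where another annotated transcript covers them, mostly as a retained intron, so this subset is not a random sample. Of the members tested in MCF10A, 88 short-upstream and 70 short-downstream exons had such an intron. The median GC content was 58.4% in the upstream and 46.7% in the downstream introns, and the median number of GGG positions per 100 nt was 3.06 and 1.20. A pattern of 4 runs of at least 3 G with spacers of 1 to 7 nt, the usual text pattern for a G-quadruplex, was found in 11 of the 88 upstream and 5 of the 70 downstream introns. In exons it was found in 2 of 443, 2 of 405 and, over all tested exons, 92 of 21603. The same pattern of C runs, which is the G pattern on the other strand, was in 14 of the 88 upstream and 3 of the 70 downstream introns. In exons the C pattern was in 7 of 443, 7 of 405 and 255 of 21603. None of the 9 upstream introns of exons called in MCF10A held the G pattern. Neither did the upstream introns of the 18 called in HMLE TWIST, against 11 of all 96 in that line. Downstream introns held the G pattern for 1 of 15 called exons in MCF10A. In HMLE TWIST it was 4 of 18, the 4 being next to exons that fell, against 7 of all 83. These counts are small and a text match is not a measured structure.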

How the data were processed

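The authors deposited 1 rMATS skipped-exon table per line, with inclusion and skipping junction read counts for each library, inclusion levels, p-values and false discovery rates. The deposited difference score subtracts the second group's mean level from the first group's. The deposited p-values and scores were not used here. Reads were aligned with STAR 2.5.3a to GRCh37, per the submitters' processing notes, and the annotation release is not given in the sources used here. The tables call the groups first and second, and the first was taken as control from the order in which the tables are named.

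Levels were recomputed as the share of reads that include the exon after division by each form's effective length. Each event was fitted with a quasi-binomial logistic model in R 4.3.3. Dispersions (at least 0.01) were moderated with limma 3.58.1 and floored at 1, followed by a two-sided F test with Benjamini-Hochberg adjustment over all events of the fit. The alternative test was limma on the log2 odds after adding 0.5 to each form. The model was tested on simulated data. Transcript annotation and sequences came from GENCODE 29. For each line and orientation the 4 largest rises and falls were named, with the 3 largest called in both lines, the 3 largest line responses, the 3 largest untreated differences in each direction and up to 4 members of each gene list called in both lines. Each named exon is represented by its event with the most reads. Some exons that meet this rule are not reported here. The members, gene lists and tests were chosen with earlier results of these data known. Replicate numbers did not pair the libraries: deviations of same-numbered libraries correlated at 0.0390 in MCF10A and 0.0270 in HMLE TWIST across all tested events, and the order of the values in a cell was assumed to be the replicate order.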

Additional observations from a re-analysis of the deposited data

Results flagged for a closer look

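For 7 named exons the change under emetine differed between the lines by the quasi-binomial line-by-treatment term. The change in HMLE TWIST minus that in MCF10A was 0.441 for RNF146, -0.416 for KLHL42, -0.352 for LETMD1, -0.306 for ACIN1, -0.247 for ENDOV, -0.225 for UBP1 and -0.102 for HNRNPC. Limma called none of these 7, with adjusted p from 0.171 for LETMD1 to 0.33 for ENDOV. The ENDOV call (quasi-binomial adjusted p = 0.0378) was lost without the first MCF10A control (0.236), the first MCF10A emetine library (0.145), the first or second HMLE TWIST control (0.156 and 0.0795) or the second HMLE TWIST emetine library (0.103).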

How the results depend on the processing

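No alternative reversed the direction of a named exon that was called, but not every alternative could. Limma, the other dispersions and the replicate block keep the same change of level. Levels without length correction and libraries left out could reverse a change under emetine only where the libraries of the 2 groups overlap. They did not overlap for 157 of the 158 called members in MCF10A and 182 of 182 in HMLE TWIST. For these no reversal was possible. Of 99 calls of named exons, limma lost 45, each event's own dispersion where larger 12 and levels without length correction 4. The replicate block lost 1, for ENDOV, and changed the count of line responses of short-downstream exons from 16 to 9. It moved no other count by over 1.5 times. A dispersion shared by all events, chosen after seeing the data, lost none. Between the untreated lines the main fit already gave every event the same dispersion. So did the fits within a line and between the untreated lines with a library left out, where a group holds a single library. A call kept in such a fit does not show that it is stable. Counts are given below for short-upstream and then short-downstream exons.

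In MCF10A (85 and 73 called), limma called 38 and 40, no minimum change gave 198 and 172, a change of at least 0.2 gave 37 and 37, short introns under 300 nt gave 32 and 45, under 1000 nt 193 and 160, long introns of at least 2000 nt 190 and 170, and of at least 10000 nt 43 and 27. In HMLE TWIST (92 and 90), limma called 55 and 60, no minimum change gave 200 and 216, a change of at least 0.2 gave 40 and 42, short introns under 300 nt 41 and 54, under 1000 nt 202 and 170, long introns of at least 2000 nt 226 and 225, and of at least 10000 nt 42 and 32. For the line responses (12 and 16), limma called 0 and 0, a change of at least 0.2 gave 5 and 8, short introns under 1000 nt 33 and 29, long introns of at least 2000 nt 33 and 41, and of at least 10000 nt 4 and 2. For short-downstream exons, own dispersion gave 8, no minimum change 25 and short introns under 300 nt 9. Between the untreated lines (21 and 27), limma called 0 and 1, no filter on the rarer form gave 0 and 0, no minimum change 59 and 65, a change of at least 0.2 gave 3 and 12, short introns under 300 nt 8 and 17, under 1000 nt 55 and 68, long introns of at least 2000 nt 54 and 61, and of at least 10000 nt 9 and 11. Changed length limits and minimum changes alter how many events can be called. For the other counts the cause was not tested.

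The share of called members that rose was 82.3% in MCF10A, 87.9% without length correction, 72.4% with no minimum change and 72.8% with long introns of at least 2000 nt. In HMLE TWIST it was 56.6%, with 66.3% without length correction, 40.0% with short introns under 300 nt, 46.1% with long introns of at least 2000 nt and 67.6% with at least 10000 nt. The share higher in HMLE TWIST between the untreated lines was 47.9%, and 0 for the 1 exon that limma called.

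Over the members tested in both lines, the mean untreated gap between the orientations was 0.3825 in MCF10A and 0.3358 in HMLE TWIST. It was 0.317 and 0.2755 without length correction, 0.3242 and 0.3238 at 10 reads, 0.405 and 0.3665 at 50 reads, 0.007273 and 0.009226 without the filter on the rarer form, 0.1085 and 0.06387 with short introns under 300 nt, 0.4075 and 0.4088 with under 1000 nt, 0.1789 and 0.1519 with long introns of at least 2000 nt, and 0.1679 and 0.04816 with at least 10000 nt. With 1 event per exon it was 0.3814 in HMLE TWIST.

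With each library left out in turn, the counts ran from 64 to 85 and 53 to 71 in MCF10A, 80 to 92 and 75 to 89 in HMLE TWIST, 6 to 12 and 9 to 19 for the line responses, and 18 to 23 and 18 to 26 between the untreated lines. The shares ran from 77.7% to 83.58% in MCF10A, 54.49% to 61.25% in HMLE TWIST and 39.53% to 47.83% between the untreated lines. The line responses of short-upstream exons numbered 7 without either MCF10A emetine library and 6 without the second HMLE TWIST control. Those of short-downstream exons numbered 9 without the first control of either line. Of 421 calls of named exons with a library left out, 48 were lost.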
